A study of Mus musculus with 5 samples.

Results

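The natriuretic peptide system in mouse granulosa cells was described through Nppc, Npr1, Npr2 and Npr3. The members were all probe sets whose platform annotation gave one of these 4 symbols alone. They numbered 6 of 45101 probe sets on the array and 6 of the 34958 with a single gene symbol, or 4 of 18194 genes. Nppc (Entrez gene 18159), Npr1 (18160) and Npr2 (230103) had a single probe set each, and Npr3 (18162) had 3. The genes were chosen for the role of the system in meiotic arrest, and Npr3 was chosen by its intensities at 24 h, higher in the knockout. That difference, every other value of the same contrast, and the Npr3 changes that use the 24 h knockout value are therefore given as descriptions.

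C-type natriuretic peptide, the product of Nppc, is made by mural granulosa cells and binds NPR2, a receptor guanylyl cyclase found on cumulus and mural granulosa cells. The cyclic GMP it makes passes through gap junctions into the oocyte, where it restrains the breakdown of cyclic AMP by PDE3A and so holds the oocyte in meiotic arrest. Luteinizing hormone lowers cyclic GMP in the follicle and meiosis resumes. NPR1 is the related cyclase that answers atrial and B-type natriuretic peptides, and NPR3 has no cyclase domain and clears natriuretic peptides from the extracellular fluid.

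The mice had been primed for 48 h with eCG, an equine gonadotropin under which follicles grow, before they received hCG, a human gonadotropin that takes the place of the ovulatory luteinizing hormone surge. There were 5 arrays, 1 per group. Wild type was sampled at 8 h after hCG (23 days of age) and at 24 h (24 days). The double knockout, with floxed alleles of both the C/EBPα and C/EBPβ genes and a Cyp19-cre transgene, was sampled at 4 h and 8 h (23 days) and at 24 h (24 days). Cyp19-cre drives the recombinase from aromatase gene sequences, which are active in granulosa cells. No wild-type array at 4 h was analysed here, and the labels do not say whether wild type carried floxed alleles or how many animals gave each RNA.

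With 1 array per group no difference had a test or a p-value. A call, higher or lower, needed a change of 2-fold or more (1 on the log2 scale) and a brighter value of at least 22, the 40th percentile over all arrays, called the floor here. Where the dimmer value was under the floor, the fold was taken from the floor and is a lower bound, written "at least". The spread available was technical. Different probe sets of the same gene varied with a pooled SD of 0.26 on the log2 scale for the genotype difference at 8 h, 0.39 for that at 24 h, 0.31 for the time difference in wild type and 0.37 for that in the knockout. The knockout array at 4 h lay on another scale, with a median intensity of 54 against 31 or 32 elsewhere. Its values are given as deposited and, for changes of the members, also after quantile normalization of the 5 arrays. Of the targeted genes, Cebpa had intensities of 685 and 19 (wild type, knockout) at 8 h and of 352 and 38 at 24 h. Cebpb (1418901_at) had 7436 and 1127, then 3976 and 85.

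The sequences upstream of Nppc and Npr3 are shown because these were the members whose levels differed past the 2-fold rule on the arrays at 8 h and 24 h. Each is the 250 bases before a RefSeq start site (GRCm38.p6), read 5′ to 3′ along the gene, with matches to the motifs searched in capitals. The window for Nppc is chr1:86670574-86670823, minus strand, and that for Npr3 is chr15:11907372-11907621, minus strand.
Nppc: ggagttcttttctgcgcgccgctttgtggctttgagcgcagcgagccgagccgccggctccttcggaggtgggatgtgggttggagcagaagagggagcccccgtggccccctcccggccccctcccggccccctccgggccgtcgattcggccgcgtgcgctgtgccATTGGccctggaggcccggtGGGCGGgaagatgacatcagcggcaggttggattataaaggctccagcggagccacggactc
Npr3: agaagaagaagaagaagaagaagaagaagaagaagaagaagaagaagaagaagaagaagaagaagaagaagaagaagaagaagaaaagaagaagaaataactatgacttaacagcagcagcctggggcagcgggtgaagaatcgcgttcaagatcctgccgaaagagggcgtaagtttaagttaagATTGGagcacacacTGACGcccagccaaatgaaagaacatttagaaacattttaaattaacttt

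In the Nppc window the capitals mark a CCAAT box on the opposite strand, beginning 82 bases before the start site, and a GC box, GGGCGG, 62 bases before it. In the Npr3 window they mark a CCAAT box on the opposite strand, 64 bases before the start, and TGACG, a part of the cyclic AMP response element, 50 bases before it. The Nppc window was 69.2% G and C and the Npr3 window 38.8%, against a median of 52.4% over all windows. Neither C/EBP motif searched, TTNNGCAA or TTGCGCAA, was found on either strand in the 300-base window, 250 before to 50 after the start site, of any of the 4 genes. Of 32851 RefSeq windows of that length, 10.8% held TTNNGCAA and 0.183% TTGCGCAA. The cyclic AMP response element TGACGTCA (1.79% of windows) and the AP-1 motif TGANTCA (7.81%) were absent from all 4 as well. TGACG lies within TGACGTCA and was in 20.8% of windows, CCAAT in 37.4% and GGGCGG in 35.7%. The window of Npr1 (chromosome 3) held CCAAT once and GGGCGG at 2 places, and that of Npr2 (chromosome 4) held none of the 7 motifs. These are matches of letters in a short window and no measure of binding.

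Nppc, the ligand, was more abundant at 24 h than at 8 h in both genotypes and differed little between genotypes. Its intensity was 86 in the knockout at 4 h, 79 for wild type as for the knockout at 8 h, and at 24 h 263 for wild type against 322 for the knockout. Both arrays at 24 h lay above the other 3. From 8 h to 24 h Nppc rose 3.33-fold in wild type (log2 1.74) and 4.08-fold in the knockout (log2 2.03). Of 23057 probe sets above the floor in wild type, 4.78% were higher at 24 h, and the Nppc change ranked 270 from the highest. In the knockout 5.43% of 22884 were higher, and Nppc ranked 164. No second Nppc probe set was there to repeat these changes, and the spread between animals is unknown for them.

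No member was called between genotypes at 8 h, when 5.26% of 22787 probe sets were called in either direction. The genotype difference in Nppc was a log2 value of 0.00 at 8 h and 0.29 at 24 h, the latter smaller than the 0.39 by which probe sets of a gene varied. From 4 h to 8 h in the knockout the deposited values differed by -0.12, and after quantile normalization by 0.59, so the sign depended on the scaling and the rule was met under neither. As a percentile of its array, Nppc stood at 58.2 in the knockout at 4 h, at 63.7 in wild type at 8 h with the knockout alike, and at 24 h at 80.4 (wild type) and 83.0 (knockout).

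Npr2, the receptor of C-type natriuretic peptide and the source of follicular cyclic GMP, was measured well above the floor on all 5 arrays. Its intensity was 1722 in the knockout at 4 h, 391 (wild type) and 549 (knockout) at 8 h, and 717 (wild type) and 930 (knockout) at 24 h. The knockout lay above wild type at both times, 1.40-fold at 8 h (log2 0.49) and 1.30-fold at 24 h (log2 0.38), which is short of the rule. Of the probe sets above the floor, 93.1% had a lower genotype difference than Npr2 at 8 h and 79.3% at 24 h. The genotype difference at 8 h exceeded the 0.26 by which probe sets of a gene varied, and that at 24 h did not exceed the matching 0.39. That spread is technical and holds no variation between animals.

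From 8 h to 24 h the Npr2 intensity was 1.83-fold higher in wild type and 1.69-fold higher in the knockout, short of 2-fold in both. From 4 h to 8 h in the knockout the deposited values fell 3.14-fold, in a comparison where 43.1% of 27829 probe sets were lower at 8 h. After quantile normalization the fall was 1.73-fold, and the rule was no longer met. Npr2 was thus at its lowest on the 8 h arrays, where its percentile was 85.0 (wild type) and 88.9 (knockout), against 93.3 in the knockout at 4 h and 91.2 and 93.3 at 24 h.

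Npr1, the receptor of atrial and B-type natriuretic peptides, was near or under the floor throughout. Its intensity was 26 in the knockout at 4 h, 18 (wild type) and 23 (knockout) at 8 h, and 15 (wild type) and 12 (knockout) at 24 h. The knockout arrays at 4 h and 8 h alone reached the floor, by 4 units at most, and no difference met the rule. Its ligands were also low. Nppa, atrial natriuretic peptide, was 7 to 9 on the 4 arrays at 8 h and 24 h and 19 at 4 h, and Nppb, B-type natriuretic peptide, was 15 to 18 on those 4 and 30 at 4 h.

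**Figure D1:**
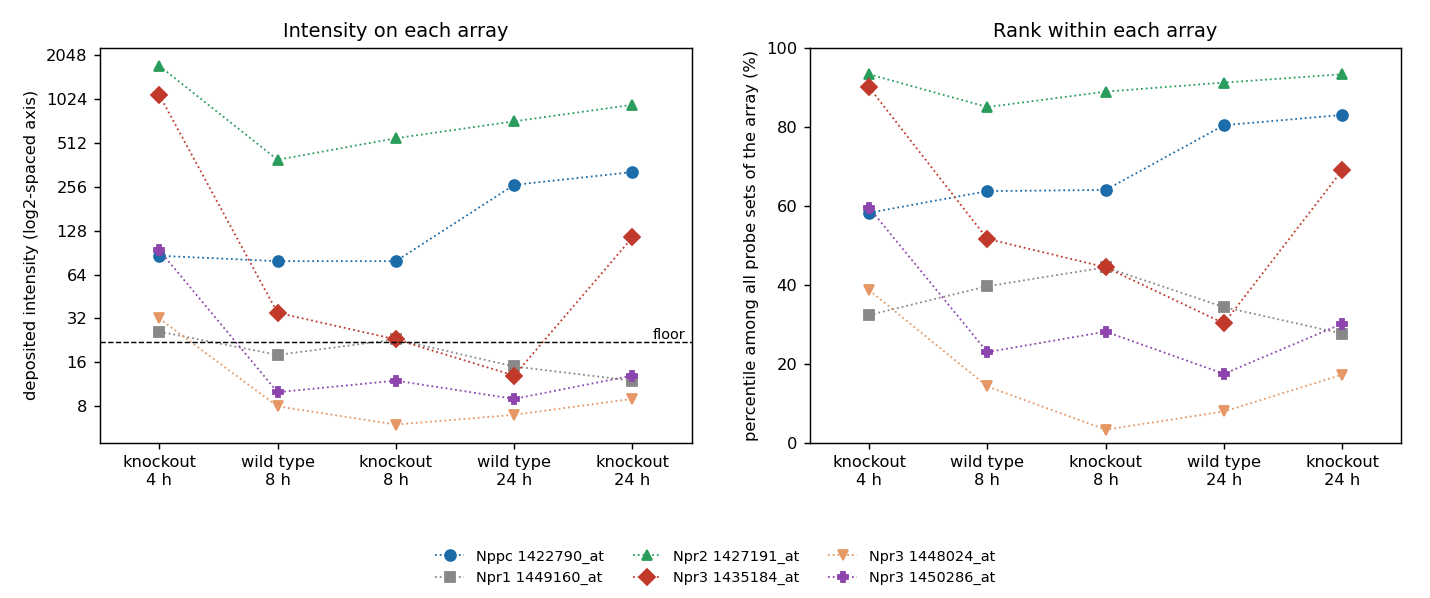
Deposited intensity (left, log2-spaced axis) and percentile among all probe sets of the same array (right, in percent) of the 6 probe sets of Nppc, Npr1, Npr2 and Npr3. Each point is a single array, dotted lines only link the points of a probe set, and the dashed line is the floor of 22. Npr3 1435184_at is at 1088 in the knockout at 4 h and at 115 in the knockout at 24 h, and at 13 to 35 on the other 3 arrays. Heights of different probe sets are not comparable as amounts of RNA.

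Npr3, the clearance receptor, was high in the knockout at 4 h, low on both arrays at 8 h, and at 24 h present in the knockout but under the floor in wild type. Its probe set 1435184_at, the brightest of 3, had an intensity of 1088 in the knockout at 4 h, 35 (wild type) and 23 (knockout) at 8 h, and 13 (wild type) and 115 (knockout) at 24 h. Of the 4 arrays on a common scale, only the knockout at 24 h stood clearly above the floor. At 24 h the knockout was at least 5.23-fold higher than wild type, with a measured log2 difference of 3.15. This was the contrast by which Npr3 was chosen. It ranked 6 from the highest of 22953 probe sets above the floor, of which 2.71% were higher in the knockout.

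At 8 h the same probe set was 1.52-fold lower in the knockout (log2 -0.61), short of the rule, with both values near the floor. In the knockout it rose 5.00-fold from 8 h to 24 h (log2 2.32), a change that ranked 107 from the highest of 22884. This rise uses the 24 h knockout value by which Npr3 was chosen. In wild type it fell over the same interval, from 35 to 13, at least 1.59-fold. The fall in wild type met the 2-fold rule on the measured values (log2 -1.43) but not once the value under the floor was set to the floor (-0.67). In wild type 6.57% of probe sets were lower at 24 h. The genotype difference was 3.75 log2 units greater at 24 h than at 8 h, and 2.99 with values raised to the floor. With single arrays this difference was not tested.

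The fall of Npr3 in the knockout from 4 h to 8 h was among the largest on the array. Probe set 1435184_at fell 47.3-fold in deposited values and 26.8-fold after quantile normalization, and ranked 15 from the lowest under both scalings, of 27829 and 24746 probe sets. The other probe sets of Npr3 were likewise brightest at 4 h. Probe set 1450286_at was 94 at 4 h, 10 and 12 in wild type and knockout at 8 h, and 9 and 13 at 24 h, so the fall from 4 h to 8 h was at least 4.27-fold in deposited values and at least 3-fold after quantile normalization. Probe set 1448024_at was 32 at 4 h, 8 and 6 at 8 h, and 7 and 9 at 24 h, so its fall was at least 1.45-fold in deposited values. After quantile normalization its measured fold was 2.85, but the value at 4 h was then under the floor and it was not called. Without a wild type at 4 h, the values do not say whether the early level belongs to the genotype or to the time.

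The 3 Npr3 probe sets repeated each other in part. All 3 had their highest value in the knockout at 4 h, and for all 3 the knockout value at 24 h was the larger. At 24 h, however, 1448024_at (9 against 7) and 1450286_at (13 against 9) were under the floor in both genotypes, so the 24 h difference rested on 1435184_at alone. At 8 h the signs were mixed, with log2 values of -0.42 for 1448024_at and 0.26 for 1450286_at, again under the floor. The annotation pairs the 3 probe sets with different GenBank records of the gene, and no source used here says which transcripts each detects.

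**Figure D2:**
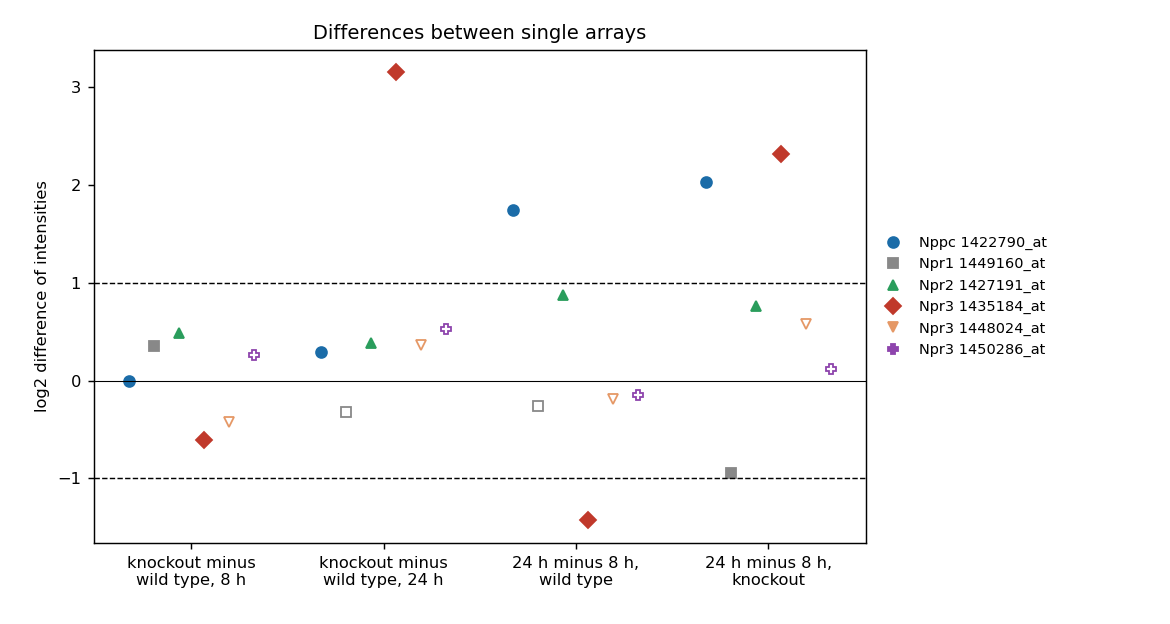
Log2 difference of intensity for each of the 6 probe sets in 4 comparisons of single arrays. Filled symbols have at least 1 value at or above the floor, open symbols have both values under it, and dashed lines mark 2-fold. Nppc lies above the upper line in both time comparisons, and Npr3 1435184_at at 3.15 in the genotype comparison at 24 h and at -1.43 and 2.32 in the time comparisons of wild type and knockout.

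The genes nearest in pattern to each member were found over the 4 arrays at 8 h and 24 h, as the smallest root mean square difference of centred log2 values among 13316 genes, with values under the floor set to the floor. For Nppc they were Trappc6a (191, 182, 647 and 826 in wild type and knockout at 8 h and then at 24 h), Igdcc4 (288, 295, 1023 and 1353) and Fuca2 (47, 40, 154 and 169), at 0.06 to 0.10 log2 units. For Npr2 they were Rbm20 (36, 48, 64 and 85), Fam13a (144, 193, 268 and 330) and Tmtc4 (416, 544, 720 and 932), at 0.03 to 0.04. For Npr3 they were Smoc2 (505, 428, 391 and 1994), Spata21 (106, 97, 72 and 343) and Aldh1a1 (3611, 1822, 2300 and 8536), at 0.14 to 0.22. In the knockout at 4 h, Smoc2 was 1395 and Aldh1a1 7468 in deposited values, whereas Spata21 was 42. Npr1, with all but 1 of these 4 arrays under the floor, had no pattern to match, and the nearest genes, 1110028F11Rik, 1700065I16Rik and 9430021M05Rik, were equally flat at the floor. With 4 points, such likeness is a description only.

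Among genes for related natriuretic peptides and for enzymes that process or degrade them, Mmel1 alone was called between genotypes. Of 8 listed genes 7 had a probe set with a single symbol, 5 of them above the floor at 8 h and 4 at 24 h. None was higher in the knockout and 1 was lower at each time, against 5.63% of all genes called in either direction at 8 h and 7.04% at 24 h. The list medians were 0.00 and 0.04, beside -0.01 and 0.05 over all genes. Mmel1, a membrane peptidase related to neprilysin, was 28 for wild type and 13 for the knockout at 8 h, at least 1.27-fold lower, and 601 and 30 at 24 h, a log2 difference of -4.32. Neprilysin itself, Mme, was 26 to 36 on these 4 arrays. Ide, the insulin-degrading enzyme that also cleaves natriuretic peptides, was 1229 in both genotypes at 8 h, and 1577 and 2133 at 24 h. Corin, the protease that activates atrial natriuretic peptide, was 597 in the knockout at 4 h, 38 and 62 in wild type and knockout at 8 h, and 13 and 12 at 24 h. Its fall from 8 h to 24 h was at least 1.73-fold in wild type and at least 2.82-fold in the knockout. Furin, a convertase of propeptides that acts on the C-type precursor, was 549 and 1055 at 8 h and 291 and 467 at 24 h, so the knockout was 1.92-fold and 1.60-fold above wild type, short of the rule.

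In the list of cyclic GMP synthesis, 12 of 16 genes had a probe set with a single symbol and 8 were above the floor. Nos3, the endothelial nitric oxide synthase, was 2.03-fold lower in the knockout at 8 h (33 against 67), and no other gene of the list was called at either time. Over all genes 5.63% were called at 8 h and 7.04% at 24 h. Gucy1a1 and Gucy1b1, the subunits of the soluble guanylyl cyclase that nitric oxide activates, were not called, at 179 and 100 and at 68 and 57 in wild type and knockout at 8 h. The membrane cyclases Gucy2c, Gucy2e and Gucy2g were under the floor on the arrays at 8 h and 24 h. Impdh1 and Gmps, enzymes of guanine nucleotide synthesis, differed by 1.15-fold at most between genotypes, the former at 202 and 190 at 8 h and 232 and 201 at 24 h. The list medians were -0.11 at 8 h and -0.12 at 24 h.

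Among effectors and exporters of cyclic GMP, 10 of 12 genes had a probe set with a single symbol. Of these, 6 were above the floor at 8 h and 7 at 24 h. In the knockout 1 was higher and 1 lower at each time, beside 5.63% of all genes called at 8 h and 7.04% at 24 h. Prkg2, cyclic GMP-dependent protein kinase II, was 1534 in the knockout at 4 h, 1733 and 3466 in wild type and knockout at 8 h, and 94 and 156 at 24 h. Its genotype difference at 8 h was 2-fold, right at the threshold, and only 0.28 on the log2 scale when its 3 probe sets were averaged. It fell from 8 h to 24 h in both genotypes, 18.4-fold in wild type and 22.2-fold in the knockout, opposite in direction to Nppc. Prkg1, the related kinase I, was 28 to 49 on these 4 arrays and not called. Cnga1, a subunit of a cyclic GMP-gated channel, was 141 and 38 at 8 h, 3.71-fold lower in the knockout, and 61 and 29 at 24 h, 2.10-fold lower. Abcc5, a cyclic nucleotide exporter, was 252 and 522 at 24 h, 2.07-fold higher in the knockout, which averaging its 10 probe sets brought under the rule (log2 0.54). The list medians were -0.08 at 8 h and 0.26 at 24 h.

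Phosphodiesterases degrade cyclic GMP and cyclic AMP. The 24 listed genes include Pde6d, Pde6g and Pde6h, which are not catalytic subunits. Of the 24, 23 had a probe set with a single symbol. None of 16 above the floor was called at 8 h, where 5.63% of all genes were, and 1 of 17 was higher and 1 lower at 24 h, where 7.04% were, with medians of -0.26 and -0.01. Pde1b was 2.46-fold higher in the knockout at 24 h (172 against 70). Pde4b, an enzyme specific for cyclic AMP, was at least 1.86-fold lower (20 against 41), which averaging its 6 probe sets likewise ended (log2 -0.15). Pde5a, the cyclic GMP-specific enzyme, was 148 and 104 in wild type and knockout at 8 h and 181 and 144 at 24 h. Pde3a, the oocyte enzyme that cyclic GMP restrains, was 14 to 17 on all 5 arrays, under the floor. Pde4d fell from 8 h to 24 h in both genotypes, 5.67-fold in wild type and 4.56-fold in the knockout.

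In the list of meiotic arrest and gap junction genes, 10 of 10 had a probe set, 7 were above the floor and none was called between genotypes, with medians of 0.19 at 8 h and -0.01 at 24 h. Gja1, connexin 43 of the granulosa cell gap junctions, was 8705 and 9720 in wild type and knockout at 8 h and 12437 and 12324 at 24 h. Gja4, connexin 37 of the junctions with the oocyte, was 173 and 135 and then 151 and 110. Gpr3, the oocyte receptor that keeps cyclic AMP high, was 115 in the knockout at 4 h and 17 to 18 on the other arrays. PPP-family phosphatases are a class whose members can remove the phosphates that keep NPR2 active. All 9 genes listed for the class, which include the regulatory subunit Ppp2r5d, were above the floor. None was called between genotypes, with medians of -0.05 and -0.21. The share of all genes called was 5.63% at 8 h and 7.04% at 24 h.

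EGF-like factors relay the luteinizing hormone signal within the follicle and also act on Nppc and NPR2. Of 4 listed genes 3 had a probe set with a single symbol, and Areg had none. At 8 h 1 was higher in the knockout and 1 lower, and at 24 h 1 was lower, beside 5.63% and 7.04% of all genes called. Btc was 27456 in the knockout at 4 h, 293 and 1043 in wild type and knockout at 8 h, and 23 and 38 at 24 h, so that it was 3.56-fold higher in the knockout at 8 h. Ereg was 15648 at 4 h, 1019 and 443 at 8 h, and 75 and 24 at 24 h, lower in the knockout by 2.30-fold at 8 h and 3.12-fold at 24 h. Egfr, their receptor, was 1182 and 609 at 8 h and 257 and 274 at 24 h, and not called between genotypes. From 8 h to 24 h these 3 genes fell in both genotypes. Over all genes, 6.45% were lower in wild type and 5.26% in the knockout. Whether the 3 falls bear on Nppc was not tested. The call for Egfr ended in both genotypes when its 7 probe sets were averaged (log2 -0.99 in wild type and -0.41 in the knockout). The falls of Ereg were 13.6-fold and 18.5-fold. None of the 3 upstream hormone receptors measured (Fshr, Esr1 and Esr2) was called between genotypes, with medians of -0.18 and 0.39. Lhcgr, also listed, had no probe set with a single symbol. Esr2, the estrogen receptor of granulosa cells, was 94 to 102 on the 4 arrays.

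**Figure D3:**
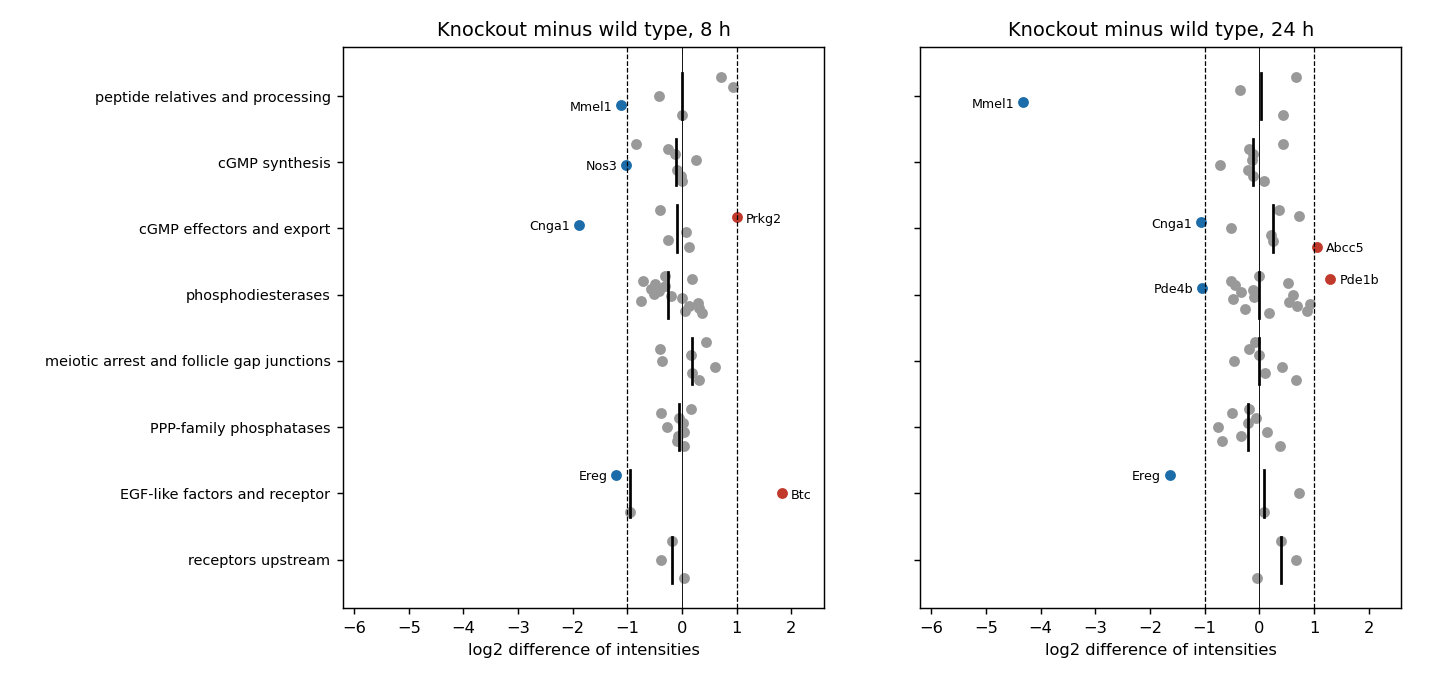
Log2 difference of intensity, knockout minus wild type, at 8 h (left) and 24 h (right) for genes of 8 pathway lists with at least 1 value at the floor. Each point is a gene, red and named when higher and blue and named when lower by the 2-fold rule, grey otherwise; black bars are list medians and dashed lines mark 2-fold. Mmel1 at 24 h lies farthest from 0, and the lists of meiotic arrest genes and phosphatases hold no called gene.

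Several sets of markers for cells other than granulosa cells also differed by genotype. For all marker counts here and below, the share of all genes called in either direction was 5.63% at 8 h and 7.04% at 24 h. In these bulk samples, fewer cells of a type and less RNA per cell cannot be told apart. Granulosa markers were present, with 8 of 10 measured, 8 of 8 above the floor and summed intensities of 29838 and 30659 in wild type and knockout at 8 h and 32927 and 36027 at 24 h. Of these, Fst alone was called between genotypes, 2.14-fold lower in the knockout at 8 h (5049 and 2358). Markers of stroma, pericytes and smooth muscle were lower in the knockout in 13 of 14 at 8 h, with sums of 21548 and 4829, and in 3 of 14 at 24 h (1 of 14 with the probe sets of a gene averaged), with sums of 13335 and 9257. Endothelial markers were lower in 10 of 11 at 8 h, with sums of 2048 and 591. At 24 h 3 of 11 were lower (2 of 11 with probe sets averaged), with sums of 1309 and 641. Leukocyte markers were lower in 3 of 10 and higher in 1, Cd52 (2.78-fold), at 8 h, with sums of 1312 and 798, and lower in 2 of 10 at 24 h (1 with probe sets averaged), with sums of 1897 and 1164. Of 6 surface epithelium markers, Krt8 (2.35-fold) and Krt18 (2.13-fold) were higher in the knockout at 8 h and the others were not called. At 24 h Krt7 alone was called, 2.12-fold lower. The list medians were 0.13 at 8 h and -0.5 at 24 h, so the markers did not move as a set. The sums of the stroma, endothelial and leukocyte lists were lower in the knockout at both times. For stroma and endothelium they differed most at 8 h. The part of these cells in the values of the members was not tested. Nos3, Cnga1, Pecam1 (44 and 13, the latter under the floor) and Cdh5 (208 and 87) were all lower in the knockout at 8 h. Cdh5 was not called when its probe sets were averaged (log2 -0.52). Whether Nos3 and Cnga1 followed the endothelium was not tested.

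Of the theca markers, 3 of 5 measured were lower in the knockout at 8 h. They were Tcf21 (8.88-fold), Fbln5 (3.61-fold, and not when its probe sets were averaged) and Cyp17a1 (2.77-fold). The sum over the 5 genes was 6189 and 3163 in wild type and knockout at 8 h, and 3713 and 10123 at 24 h. Aldh1a1, at 2300 and 8536, made up most of both sums at 24 h. It alone was called then, 3.71-fold higher in the knockout. Cyp17a1, the androgen synthesis gene, was 131 and 240 and Tcf21 102 and 70. The part of theca cells in the Npr3 difference was not tested. Oocyte markers were present on all arrays, with 10 of 10 above the floor, none called between genotypes, and sums of 5958 and 5542 at 8 h and 4597 and 5602 at 24 h. The knockout array at 4 h had sums of 133699 for granulosa markers and 15884 for oocyte markers in deposited values, the highest of the 5 arrays for both, and Npr3, Npr2 and Gpr3 also had their highest deposited values there. After quantile normalization Npr2 was 1070 there and 1080 in the knockout at 24 h. The part of cell makeup in those values was not tested.

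**Figure D4:**
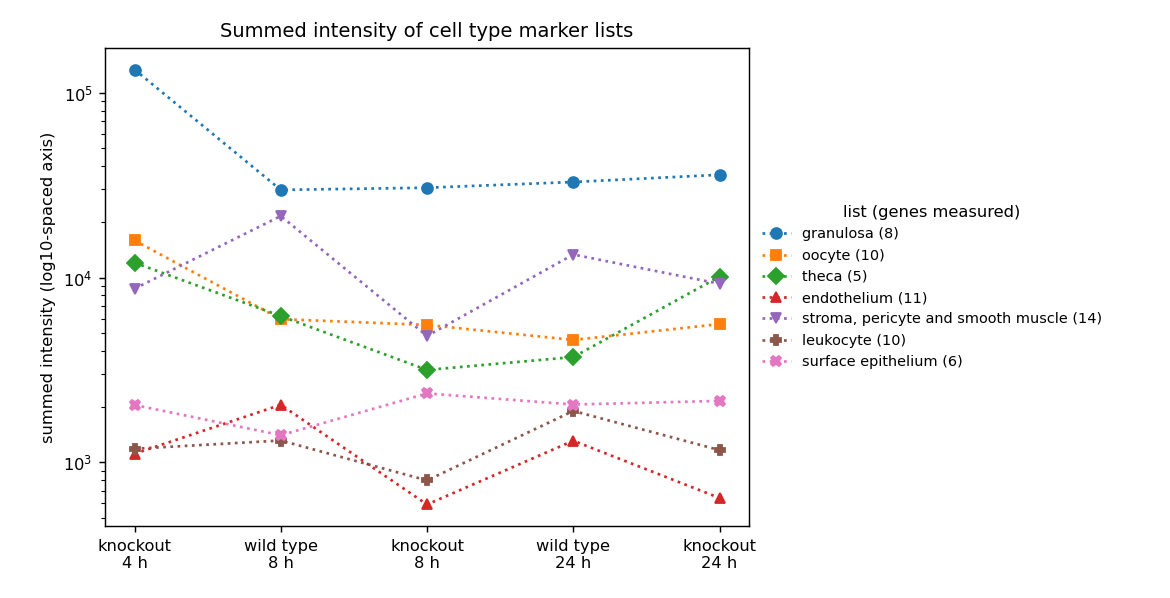
Summed deposited intensity of each cell type marker list on each array (log10-spaced axis), with the number of genes measured in the key. Stroma and endothelium lie below wild type in the knockout at 8 h and, by less, at 24 h. Among the 4 arrays at 8 h and 24 h the theca sum is highest at 24 h in the knockout, where most of it is Aldh1a1.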

How the data were processed

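Granulosa cell RNA of 5 samples, 1 per group, was hybridised to Affymetrix 3′ expression arrays. Per the labels' protocols, 5 ug of total RNA gave the biotinylated cRNA. The authors deposited intensities, for which affy and RMA are named, unversioned, in the submitters' processing notes. The deposited intensities are whole numbers on a linear scale from 4 upward, so log2 was taken before every difference, and low values are coarse. Samples were grouped by title. Probe sets with a single symbol in the platform annotation were used (34958; 932 had several and 9211 none listed), with symbols updated through Entrez identifiers from RefSeq (34754 matched). A listed gene was represented by its probe set of highest mean, which gave 18194 genes.

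The size rule, which needs no replicates, was run on simulated data with planted differences well past 2-fold, in probe sets well above the floor. That run does not speak to differences near 2-fold, to values near the floor or to variation between animals. Analyses used Python 3.11.15, numpy 2.4.6 and pandas 2.3.3. The members and lists were chosen with earlier results of these data known. All member probe sets are described. Pathway genes are named when called between genotypes. Others named are a short fixed set and further genes outside it, such as Corin, Furin and Pde4d, picked without a rule. Impdh2, of the fixed set, had no probe set with a single symbol. Nearest genes are named by the 3 smallest distances. Alternatives were other folds, floors and scalings, the mean of probe sets (for the gene lists only), and leaving out less specific probe sets. The depth of an array has no count, and the number of arrays limits the precision.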

Additional observations from a re-analysis of the deposited data

Results flagged for a closer look

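Npr3 (1435184_at) lay below wild type in the knockout at 8 h (log2 -0.61) and above it at 24 h (3.15), a difference of 3.75 log2 units between the times. The same 4 arrays give 3.75 as the difference between its rise from 8 h to 24 h in the knockout (2.32) and its fall in wild type (-1.43). Npr1 (1449160_at) was higher in the knockout at 8 h (0.35) and lower at 24 h (-0.32), a difference of -0.68, with 3 of the 4 values under the floor. It was -0.06 with those values set to the floor, and that of Npr3 was 2.99. Each group is a single array, so neither difference was tested. The Npr3 difference also holds the 24 h knockout value by which that gene was chosen.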

How the results depend on the processing

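With single arrays no library could be left out. No paired analysis was possible because each group has 1 array and no comparison has a test. Counts of probe sets past the rule moved by over 1.5 times with the fold threshold. At 1.5-fold they were 2998 and 5253 for the genotype differences at 8 h and 24 h, and 6295 and 6299 for the time differences in wild type and knockout. At 3-fold they were 436, 530, 921 and 883, and 5941 for the knockout from 4 h to 8 h. The last was 13448 at 2-fold, of which 1458 were higher at 8 h. It was 7830 with each array centred on its median (4400 higher) and 7825 after quantile normalization (4273 higher). At 2-fold the other counts were 1199, 1771, 2617 and 2652, and they stayed within 1.5 times of these under other floors, scalings and sets of probe sets.

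No called member changed direction under any alternative. Of the 6 member probe sets over 5 comparisons and 9 alternatives, 9 values lost the call and 4 gained it. The 4 gained calls came at 1.5-fold, for Npr3 at 8 h, for Npr2 over time in both genotypes and for Npr1 over time in the knockout. The lost calls were the fall of Npr3 1435184_at in wild type (at 3-fold, at the 60th percentile floor of 66, and with values raised to the floor), and, from 4 h to 8 h, Npr2 under both scalings and Npr3 1448024_at under both scalings, at that higher floor and with values raised to it. The rise of Nppc in both genotypes and the higher Npr3 1435184_at in the knockout at 24 h kept their calls under every alternative run for members. The call of Npr3 was in the contrast by which it was chosen, so keeping it adds no support. Leaving out less specific probe sets removed no member, and the mean of probe sets was not taken for members. A floor from the 4 arrays at 8 h and 24 h alone, 19 instead of 22, was added after the data had been seen and changed no member's call.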
